A study of Homo sapiens with 6 samples.

Results

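The genes described here encode the subunits of RNA polymerases I, II and III. They were taken as every row of the deposited table whose symbol is POLR1, POLR2 or POLR3 followed by letters only. This gave 31 of 12793 rows, of which 30 are described here: 8 POLR1, 13 POLR2 and 9 POLR3 genes. RNA of HCT15, an established line of human colorectal cancer cells, was measured as FPKM, a fragment count scaled by transcript length and by the library's mapped total. The 3 control libraries carried a control guide, sgctrl, and the genotype label WT. The other 3 libraries carried sgRBM15 and the label RBM15 Knockout, made with CRISPR/Cas9, a nuclease that cuts DNA where a guide directs it. The comparison asked what loss of RBM15, which binds RNA and guides the enzymes that place m6A on it, does inside the tumour cells. The labels do not say whether the knockout cells were a clone or a pool, or whether the replicate libraries are separate cultures. P-values therefore reflect the spread among these libraries alone, and it may be technical.

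RNA polymerase I (Pol I) transcribes the precursor of the large ribosomal RNAs in the nucleolus. RNA polymerase II (Pol II) makes mRNA, and RNA polymerase III (Pol III) makes transfer RNA, 5S ribosomal RNA and other short RNAs. Each enzyme has its own pair of largest subunits around the active site. Some small subunits are used by all of the enzymes, and a pair is used by Pol I and Pol III only, so the letters after a symbol do not always tell where a protein works.

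RBM15, the targeted gene, was higher and not lower under the knockout label: it measured 5.97, 5.89 and 5.51 FPKM across the controls, against 17.3, 18.5 and 18.03 FPKM across the knockout-labelled libraries (log2 difference 1.48, limma adjusted p = 3.88e-06). Edited genes can keep their mRNA, but RBM15 stood at 3.1 times its control mean, and the cause was not tested. This level does not settle whether the labels hold or are exchanged. Below, genes that "rose" were higher, and genes that "fell" lower, in the knockout-labelled libraries, so that directions depend on those labels. All 6 listed markers of colorectal epithelium were present, summing to between 3353 and 3438 FPKM in the controls and between 3132 and 3270 FPKM in the knockout-labelled libraries. KRT8 and KRT18 make up most of that sum, and the single markers did not change alike. VIL1 had means of 17.0 and 3.87 FPKM, CDX2 of 20.9 and 9.52 FPKM and EPCAM of 528 and 415 FPKM (limma adjusted p of 4.48e-05 or less for each of the 3). KRT18 was lower too (1421 and 1277 FPKM, limma adjusted p = 0.00303). KRT8 was higher (1292 and 1391 FPKM, limma adjusted p = 0.0307), and CDH1 was not called (122 and 118 FPKM, limma adjusted p = 0.154). The part of these marker differences in the polymerase results was not tested. Of the leukocyte markers CD68 was listed, at 2.91 and 6.68 FPKM on average, a difference that was called (log2 difference 0.97, limma adjusted p = 0.000116). Of the fibroblast markers COL1A1 was listed, at 1.15 and 1.18 FPKM (limma adjusted p = 0.932). In bulk RNA, fewer cells of a type and less RNA per cell cannot be told apart. Read totals were not recovered from the FPKM values, and depth is therefore unknown. Tests were limma fits on log2(FPKM + 1) over the 11451 genes whose mean reached 1 FPKM, called at an adjusted p of 0.05. All 31 polymerase genes entered that test, and the counts below cover the 30 described.

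The polymerase genes did not move as 1 block. Of the 30, 12 rose and 5 fell (56.7%), against 54.5% of all tested genes, so the share that changed was close to the background. Of all tested genes 25.3% rose and 29.2% fell, and of the polymerase genes 40.0% rose and 16.7% fell. Their median log2 difference was 0.094, against -0.018 over all tested genes. The values of the groups did not overlap for 21 members, where 63% of all tested genes had no overlap.

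Split by symbol, 5 of 8 POLR1 genes rose and 1 fell, with a median log2 difference of 0.28. Of the 13 POLR2 genes 3 rose and 3 fell (median 0.054). When libraries were rescaled to a common sum, centred on their medians, quantile normalized or corrected for GC and length, 5 rose. More of all tested genes rose in those settings too, 3149 to 3500 of 11451 against 2896. Last, of the 9 POLR3 genes 4 rose and 1 fell (median 0.073). These are counts and medians beside the background, and no test compared the enzymes with each other. In each knockout-labelled library the median deviation of the POLR1 genes from their control means lay between 0.25 and 0.32 on the log2 scale. That of the POLR2 genes lay between 0.0065 and 0.097, and that of the POLR3 genes between 0.044 and 0.21. The same median over all tested genes lay between -0.019 and -0.014.

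**Figure D1:**
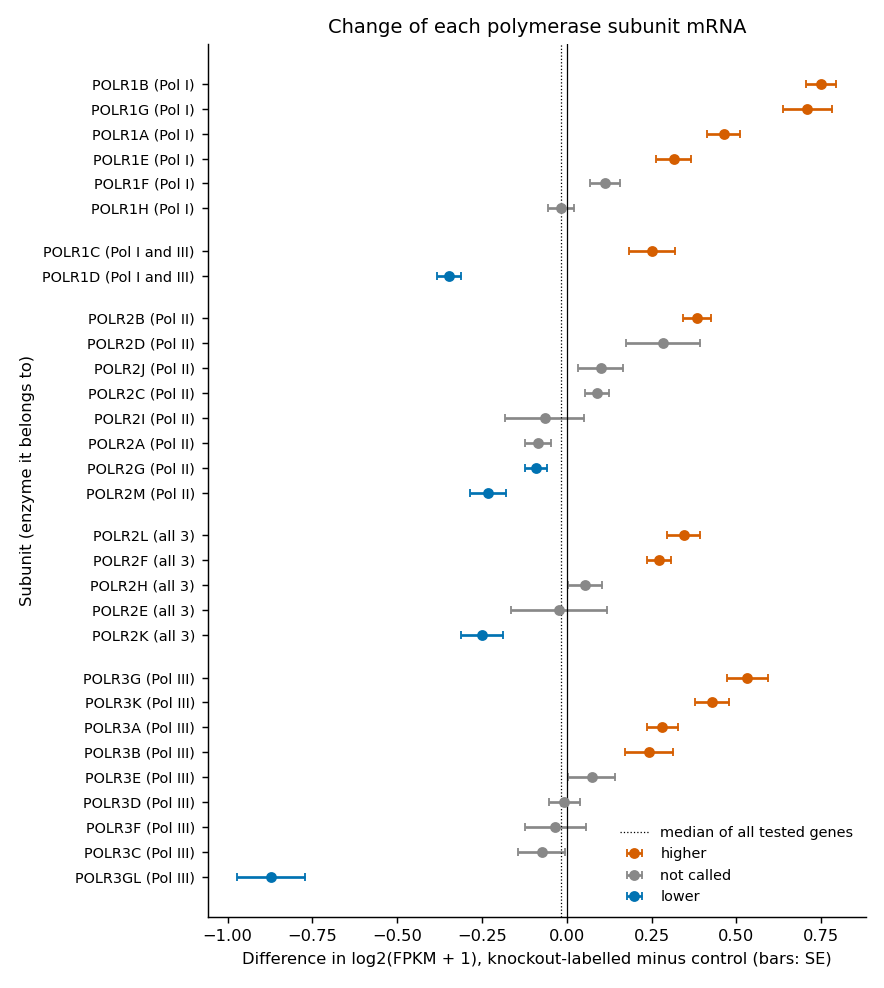
Difference in log2(FPKM + 1) between the 3 knockout-labelled libraries and the 3 controls for each of the 30 genes, grouped by the enzyme that holds the subunit; bars are the SE of the limma fit and colours show the call at an adjusted p of 0.05. POLR1B (0.75) and POLR1G (0.71) lie furthest to the right, and POLR3GL lies furthest to the left at -0.87.

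FPKM are scaled by length, so levels can be set side by side between genes. The POLR2 genes were the most abundant, with a median of 50.1 FPKM over the 13 control means. That group mixes 8 genes of Pol II alone (median 37.2 FPKM) with 5 used by all the enzymes (median 56.4 FPKM). The medians of the control means were 13.7 FPKM for the POLR1 genes and 9.98 FPKM for the POLR3 genes. Genes of 1 symbol group differed widely in level: the lowest and highest POLR1 genes in the controls were POLR1A at 5.84 FPKM and POLR1D at 119 FPKM. POLR1D is shared with Pol III, and the subunits proper to Pol I spanned 5.84 to 24.5 FPKM. POLR3B was the lowest of all members at 2.44 FPKM. The highest POLR3 gene, POLR3GL, stood at 19.2 FPKM.

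**Figure D2:**
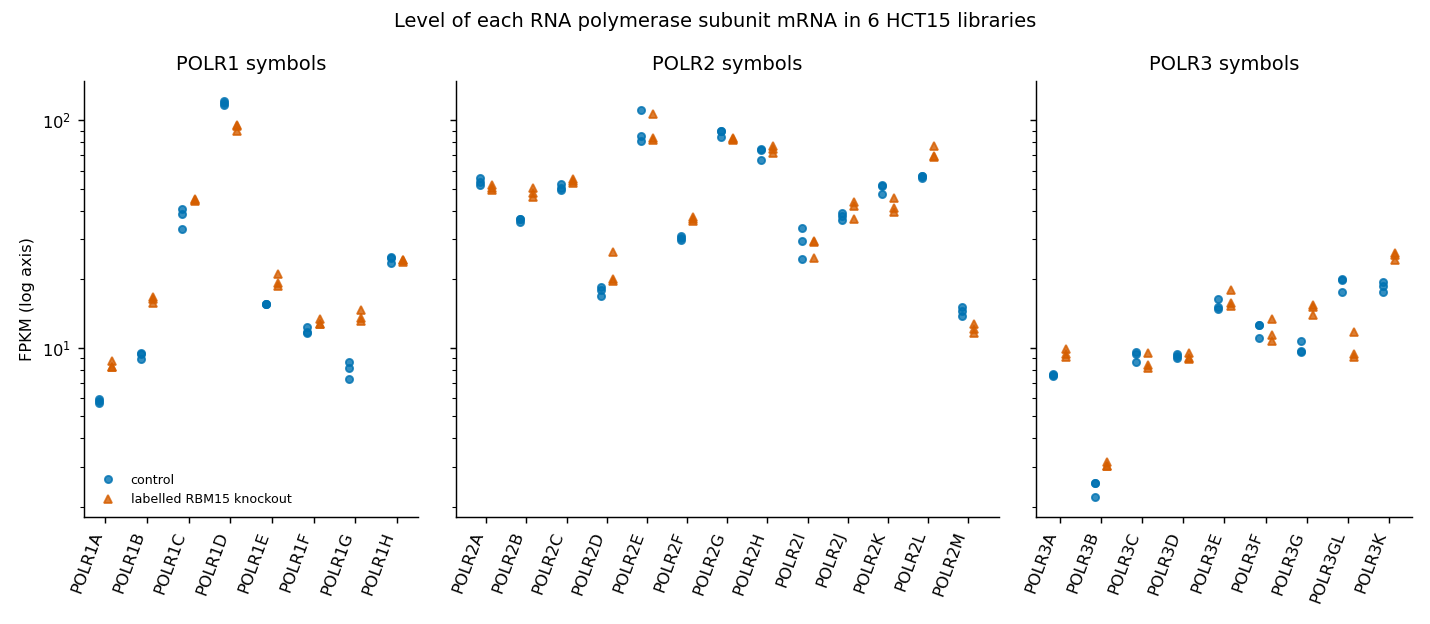
FPKM of each of the 30 genes in every library on a log axis, with control libraries as circles and knockout-labelled libraries as triangles. The POLR2 genes sit mostly above the POLR1 and POLR3 genes, and the triangles of POLR1A, POLR1B and POLR1G lie clear above the circles.

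Both of the largest subunits of Pol I rose. POLR1B, its second-largest subunit, measured 9.43, 8.96 and 9.48 FPKM across control libraries 1 to 3, against 16.8, 16.5 and 15.7 FPKM across knockout-labelled libraries 1 to 3. Every knockout-labelled library lay above every control. The means were 9.29 ± 0.284 and 16.3 ± 0.552 FPKM (SD, n = 3 each), a ratio of 1.75 and a log2 difference of 0.75 (SE 0.0455, limma adjusted p = 3.9e-05). POLR1B (ENSG00000125630) spans 112541915 to 112577150 of chromosome 2 in GRCh38, on the plus strand.

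POLR1A, the largest subunit, which carries much of the active site, measured 5.83, 5.97 and 5.72 FPKM across the controls, against 8.22, 8.27 and 8.77 FPKM across the knockout-labelled libraries. Its groups did not overlap, and it rose by a log2 difference of 0.46 (SE 0.049, limma adjusted p = 0.000315). POLR1A and POLR1B thus both rose, POLR1B by the larger ratio (1.75 against 1.44).

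POLR1G and POLR1E form a dimer on the side of Pol I that serves initiation and elongation, as the factor TFIIF does for Pol II. POLR1G measured 7.29, 8.66 and 8.16 FPKM across the controls, against 13.1, 13.5 and 14.7 FPKM across the knockout-labelled libraries (log2 difference 0.71, SE 0.0714, limma adjusted p = 0.000251). Its groups were well apart. Exons of ERCC1, a DNA repair gene on the opposite strand, cover 43.5% of the exon bases of POLR1G, and the sources used here do not give the strand setting of the counting. ERCC1 itself stood at 49.8 ± 0.375 and 49.4 ± 1.78 FPKM (limma adjusted p = 0.788), so it did not pass the test. The part of ERCC1 in the POLR1G values was not tested. POLR1E, the partner of POLR1G, measured 15.6, 15.6 and 15.5 FPKM across the controls, against 19.2, 21.03 and 18.6 FPKM across the knockout-labelled libraries (log2 difference 0.31, SE 0.051, limma adjusted p = 0.00197).

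The remaining subunits proper to Pol I were not called. POLR1F, a stalk subunit that meets the initiation factor RRN3, had means of 11.9 ± 0.346 and 12.9 ± 0.395 FPKM (log2 difference 0.11, limma adjusted p = 0.0661). It passed the test when the libraries were rescaled to a common sum, centred on their medians or quantile normalized (0.0335 to 0.0359). POLR1H, which takes part in RNA cleavage by Pol I, measured 24.9, 23.6 and 24.97 FPKM across the controls, against 23.9, 24.4 and 24.3 FPKM across the knockout-labelled libraries (limma adjusted p = 0.719), and its groups overlapped.

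The 2 subunits shared by Pol I and Pol III changed in opposite directions. POLR1C and POLR1D form a dimer that starts the assembly of both enzymes, and changes in these genes are known in Treacher Collins syndrome. POLR1D measured 116, 119 and 121 FPKM across the controls, against 95.4, 94.4 and 89.4 FPKM across the knockout-labelled libraries. It fell in all 3 (log2 difference -0.35, SE 0.0354, limma adjusted p = 0.000259). POLR1C rose from 40.6, 38.6 and 33.3 FPKM to 44.8, 44.2 and 45.1 FPKM (log2 difference 0.25, SE 0.0689, limma adjusted p = 0.0188). The control values of POLR1C were the more scattered, and without knockout-labelled library 3 its call was lost (adjusted p = 0.0526). The ratio of POLR1C to POLR1D FPKM was between 0.274 and 0.35 in the controls and between 0.468 and 0.504 in the knockout-labelled libraries. This ratio was chosen after the values were seen and was not tested.

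Stretches before the start of POLR1B and POLR1D are shown here, as the POLR1 gene with the largest rise and the 1 POLR1 gene that fell. They are RefSeq sequence of GRCh38.p14, written 5′ to 3′, on the plus strand at chr2:112541786-112541914 and chr13:27620493-27620741, and they hold no exon of GENCODE 29. Capitals mark GC boxes (GGGCGG) and CCAAT boxes (CCAAT) on either strand.
POLR1B: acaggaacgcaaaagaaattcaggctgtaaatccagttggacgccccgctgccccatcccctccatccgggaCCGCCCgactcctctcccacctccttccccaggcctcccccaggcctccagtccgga
POLR1D: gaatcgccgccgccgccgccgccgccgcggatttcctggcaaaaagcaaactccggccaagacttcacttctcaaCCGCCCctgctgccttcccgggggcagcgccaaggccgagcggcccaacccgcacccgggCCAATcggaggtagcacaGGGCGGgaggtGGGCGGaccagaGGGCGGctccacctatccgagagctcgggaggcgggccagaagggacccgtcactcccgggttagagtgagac
The POLR1B stretch of 129 bases holds 1 GC box, and the POLR1D stretch of 249 bases holds 5 matches, of GC boxes and a CCAAT box.

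Pol II showed small and opposite changes. POLR2A, the largest subunit with the repeated tail that is phosphorylated during transcription, measured 53.5, 51.7 and 55.5 FPKM across the controls, against 50.4, 51.7 and 49.1 FPKM across the knockout-labelled libraries. The difference was not called (log2 difference -0.086, SE 0.038, limma adjusted p = 0.0942). POLR2B, the second-largest subunit, rose from 36.9, 35.8 and 36.9 FPKM to 48.0, 45.8 and 50.3 FPKM, with no overlap (log2 difference 0.38, SE 0.042, limma adjusted p = 0.000358). The ratio of POLR2B to POLR2A FPKM was between 0.665 and 0.692 in the controls and between 0.886 and 1.02 in the knockout-labelled libraries. This ratio, too, was chosen after the values were seen and was not tested.

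POLR2M encodes a protein, Gdown1, that binds Pol II and is not part of its core. It fell from 15.1, 13.7 and 14.5 FPKM to 11.6, 12.1 and 12.8 FPKM (log2 difference -0.23, SE 0.0543, limma adjusted p = 0.00973). POLR2G, which forms the stalk of Pol II with POLR2D, fell from 88.0 ± 2.8 to 82.5 ± 0.943 FPKM at the edge of the threshold (log2 difference -0.091, SE 0.0326, limma adjusted p = 0.0486). That call was lost without any 1 library other than control library 1 (0.0736 to 0.137) and in 5 other alternatives (0.0658 to 0.143). POLR2D measured 16.9, 18.6 and 17.9 FPKM across the controls, against 19.6, 26.4 and 20.1 FPKM across the knockout-labelled libraries (limma adjusted p = 0.0603). Knockout-labelled library 2 was the highest of the 6 for POLR2D by a wide margin, and without it the log2 difference was 0.15 instead of 0.28. POLR2D passed the test on the TPM scale, with median centring, with quantile normalization, with a replicate block and without knockout-labelled library 1 (0.0294 to 0.0482).

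POLR2C, POLR2J and POLR2I, further subunits proper to Pol II, were not called. POLR2C and POLR2J form the dimer that corresponds to POLR1C and POLR1D in the other enzymes. POLR2C had means of 50.7 ± 1.57 and 53.9 ± 1.14 FPKM (limma adjusted p = 0.0706), and POLR2J of 37.9 ± 1.39 and 40.7 ± 3.63 FPKM (limma adjusted p = 0.24). POLR2C passed the test on the TPM scale, with median centring, with quantile normalization, with the GC and length correction and without control library 2 (0.00889 to 0.0477). POLR2J passed it with the GC and length correction (log2 difference 0.23 instead of 0.10, adjusted p = 0.022) and without knockout-labelled library 3 (0.17, 0.0216). POLR2I, a small subunit at the edge of the enzyme linked to accuracy of transcription, spread from 24.6 to 33.7 FPKM in the controls and from 24.8 to 29.6 FPKM in the knockout-labelled libraries (limma adjusted p = 0.664). Exons of TBCB on the opposite strand cover 32.9% of the exon bases of POLR2I, and TBCB fell by 0.34 on the log2 scale. Its part in the POLR2I values was not tested.

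Of the 5 small subunits used by all 3 enzymes, 2 rose, 1 fell and 2 were not called. Thus 60.0% of them changed, close to the 54.5% of all tested genes. POLR2L measured 55.6, 57.1 and 56.7 FPKM across the controls, against 69.8, 77.3 and 68.9 FPKM across the knockout-labelled libraries (log2 difference 0.34, SE 0.0474, limma adjusted p = 0.000976). The groups of POLR2L did not overlap. POLR2F rose from 31.04, 30.4 and 29.7 FPKM to 36.0, 36.8 and 37.7 FPKM (log2 difference 0.27, SE 0.0352, limma adjusted p = 0.000757). POLR2K, a small zinc-binding subunit as POLR2L is, fell from 51.7, 51.4 and 47.2 FPKM to 41.0, 45.6 and 39.5 FPKM (log2 difference -0.25, SE 0.0616, limma adjusted p = 0.0122).

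POLR2E and POLR2H, the others of this kind, overlapped between groups. POLR2E spread from 80.6 to 110 FPKM in the controls and from 81.5 to 107 FPKM in the knockout-labelled libraries (limma adjusted p = 0.9). A single library in each group, control 2 and knockout-labelled 3, stood high for POLR2E. POLR2H had means of 71.8 ± 4.33 and 74.5 ± 2.38 FPKM (limma adjusted p = 0.39). Exons of CD151 on the opposite strand cover 22.5% of the exon bases of POLR2L, and CD151 fell by 0.13 on the log2 scale while POLR2L rose. Its part in the POLR2L values was not tested.

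A pair of Pol III subunits changed in opposite directions. POLR3G and POLR3GL are related proteins that take the same place in the enzyme, so that a Pol III complex holds either. POLR3G is known for high levels in stem cells and tumour cells, and POLR3GL for broad expression in differentiated tissue. POLR3G measured 10.7, 9.56 and 9.68 FPKM across the controls, against 15.2, 13.9 and 15.5 FPKM across the knockout-labelled libraries. POLR3GL measured 19.96, 17.5 and 20.1 FPKM across the controls, against 11.7, 9.4 and 9.1 FPKM across the knockout-labelled libraries. POLR3GL was thus the more abundant in each control and POLR3G in each knockout-labelled library.

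POLR3G rose by a log2 difference of 0.53 (SE 0.0606, limma adjusted p = 0.000428), and POLR3GL fell by 0.87 on the log2 scale (SE 0.0988, limma adjusted p = 0.000419). The ratio of POLR3G to POLR3GL FPKM was 0.536, 0.545 and 0.481 in control libraries 1 to 3. It was 1.29, 1.48 and 1.7 in knockout-labelled libraries 1 to 3. On the log2(FPKM + 1) scale the ratio differed by 1.40, from -0.88 ± 0.0925 to 0.52 ± 0.182 (SD, n = 3 each). A 2-sided exact permutation test gave p = 0.1, the smallest that 3 against 3 libraries allow. Neither gene overlapped between groups and they changed in opposite directions, so the ratio had to separate fully. This p was therefore fixed by the single-gene values and adds nothing to them.

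**Figure D3:**
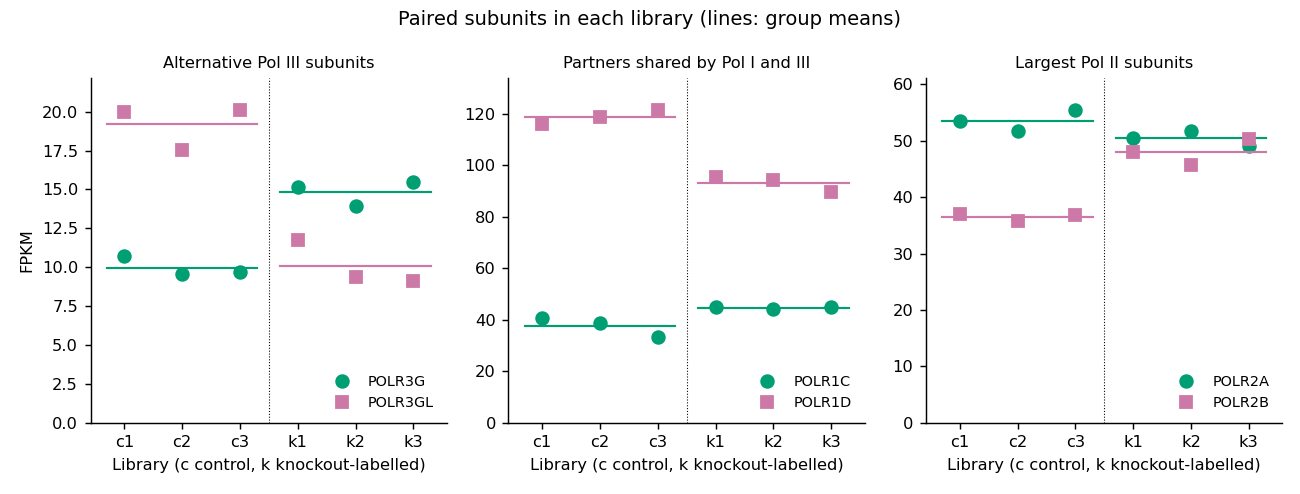
FPKM of 3 pairs of subunits in each library, control libraries c1 to c3 left of the dotted line and libraries k1 to k3 labelled knockout right of it, with lines at the group means. POLR3G and POLR3GL change places (9.98 and 19.2 FPKM on average in the controls, 14.9 and 10.1 FPKM in the knockout-labelled libraries), POLR1C and POLR1D come closer, and POLR2B reaches the level of POLR2A.

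In GRCh38, POLR3GL (ENSG00000121851) spans 145964702 to 145978848 of chromosome 1 and POLR3G (ENSG00000113356) spans 90471748 to 90514553 of chromosome 5, both on the plus strand. The largest fall among the members is why the stretch before the start of POLR3GL is shown, at chr1:145964583-145964689 on the plus strand of GRCh38.p14 (RefSeq), free of GENCODE 29 exons, with the same capitals as above.
POLR3GL: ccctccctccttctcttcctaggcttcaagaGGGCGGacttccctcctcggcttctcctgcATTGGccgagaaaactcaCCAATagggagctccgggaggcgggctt
Its 107 bases hold 3 matches, of a GC box and of CCAAT boxes on both strands. POLR3C, which binds the same part of the enzyme as POLR3G or POLR3GL, ends 122196 bases before POLR3GL on chromosome 1. POLR3C did not fall with it: its means were 9.21 ± 0.506 and 8.7 ± 0.714 FPKM (limma adjusted p = 0.388).

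The other POLR3 genes that passed the test all rose. POLR3K, a small subunit for RNA cleavage and termination by Pol III, rose from 19.6, 17.6 and 18.6 FPKM to 25.6, 24.4 and 26.1 FPKM (log2 difference 0.43, SE 0.0503, limma adjusted p = 0.000484). POLR3A, the largest subunit, rose from 7.6, 7.65 and 7.55 FPKM to 9.15, 9.84 and 9.37 FPKM (log2 difference 0.28, SE 0.0461, limma adjusted p = 0.00207). Neither gene overlapped between groups. POLR3B, the second-largest subunit, rose from 2.55, 2.2 and 2.55 FPKM to 3.02, 3.15 and 3.01 FPKM (log2 difference 0.24, SE 0.0707, limma adjusted p = 0.0238). Its call was lost without control library 2 (adjusted p = 0.068), knockout-labelled library 1 (0.0535) or knockout-labelled library 2 (0.0652). Of the 2 largest subunits of each enzyme, 6 genes in all, 5 rose (83.3%, against 25.3% of all tested genes), POLR3B with the unstable call just given, and POLR2A was not called. That grouping was made after the values were seen.

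POLR3D, POLR3E and POLR3F were not called. POLR3D and POLR3E form a dimer like that of POLR1G and POLR1E. POLR3D had means of 9.22 ± 0.143 and 9.17 ± 0.319 FPKM (limma adjusted p = 0.899), and POLR3E of 15.4 ± 0.866 and 16.3 ± 1.46 FPKM (limma adjusted p = 0.411). POLR3F, the partner of POLR3C and POLR3G, had means of 12.1 ± 0.885 and 11.8 ± 1.43 FPKM (limma adjusted p = 0.77). The dimers of Pol I and Pol III thus differed in their calls, a difference between them that was not tested.

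CRCP, a subunit of Pol III that does not carry a POLR symbol and is no member by the rule, rose from 9.27, 9.4 and 9.11 FPKM to 13.6, 16.0 and 15.9 FPKM (log2 difference 0.65, SE 0.0652, limma adjusted p = 0.000242). Its groups did not overlap.

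The factors that work with each enzyme were read from 4 lists. Of 9 Pol I factors 7 rose and 1 fell (median log2 difference 0.35). TAF1A, a subunit of the selectivity factor that brings Pol I to the ribosomal DNA promoter, rose from 4.8 ± 0.78 to 8.74 ± 0.891 FPKM. TCOF1, which encodes the nucleolar protein treacle, rose from 29.9 ± 0.346 to 45.1 ± 0.858 FPKM, and RRN3, the factor that brings Pol I to its promoter, by 0.43 on the log2 scale. CAVIN1, known both as a Pol I release factor and as a protein of caveolae, rose by 0.61. The 1 factor that fell was TAF1C, by 0.15 on the log2 scale (limma adjusted p = 0.0438). Of this list 77.8% rose, against 25.3% of all tested genes.

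Among 26 general factors of Pol II, 9 rose (34.6%) and 3 fell (11.5%), with a median log2 difference of 0.057. In all 46.2% of this list changed, against 54.5% of all tested genes. The largest change was in MNAT1, an assembly factor of the kinase module of TFIIH, which fell from 22.2 ± 2.64 to 14.4 ± 0.81 FPKM. CCNH, the cyclin of the same module, fell by 0.18 on the log2 scale, while CDK7, its kinase, was not called (limma adjusted p = 0.299). Exons of RASA1 on the opposite strand cover 12.7% of the exon bases of CCNH, and their part in the CCNH values was not tested. CTDP1, a phosphatase of the POLR2A tail, rose by 0.43, GTF2F2 of TFIIF by 0.32 and the elongation factor gene SUPT6H by 0.26.

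Of 17 Pol III factors, 9 rose (52.9%) and 3 fell (17.6%), with a median log2 difference of 0.13. In all 70.6% of this list changed, against 54.5% of all tested genes (25.3% rose and 29.2% fell). BDP1, a subunit of TFIIIB, the factor that places Pol III at its promoters, rose by 0.41 on the log2 scale. SSB, which encodes the La protein that binds the ends of new Pol III transcripts, rose from 181 ± 4.29 to 231 ± 2.04 FPKM, and GTF3C6 of TFIIIC rose by 0.30. SNAPC2, of the complex used at small nuclear RNA promoters, fell by 0.33. Of the same complex SNAPC4 rose by 0.28 and SNAPC5 by 0.22, and SNAPC1 and SNAPC3 were not called (limma adjusted p of 0.212 and 0.0788). MAF1, which encodes a repressor of Pol III, fell from 52.3 ± 1.6 to 46.7 ± 2.41 FPKM (log2 difference -0.16, limma adjusted p = 0.0216), and BRF2 fell by 0.29 on the log2 scale. Exons of ADGRA2 on the opposite strand cover 59% of the exon bases of BRF2, and exons of METTL5, also opposite, 11.2% of those of SSB. On the same strand, genes without a row in the deposited values cover 21.3% of the exon bases of SNAPC1 and 23.2% of those of SNAPC5. The part of these overlaps in the values was not tested.

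Among 13 genes for the assembly and import of the polymerases, 4 rose (30.8%) and 1 fell (median log2 difference 0.054). In all 38.5% of them changed, a smaller share than the 54.5% of all tested genes. RUVBL1, an ATPase of the chaperone complex for polymerase assembly, rose from 46.7 ± 0.756 to 60.4 ± 1.91 FPKM, while its partner RUVBL2 was not called (limma adjusted p = 0.154). PIH1D1, an adaptor of that complex, fell by 0.31 on the log2 scale. RPAP3 rose by 0.24 and PFDN2 by 0.21.

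**Figure D4:**
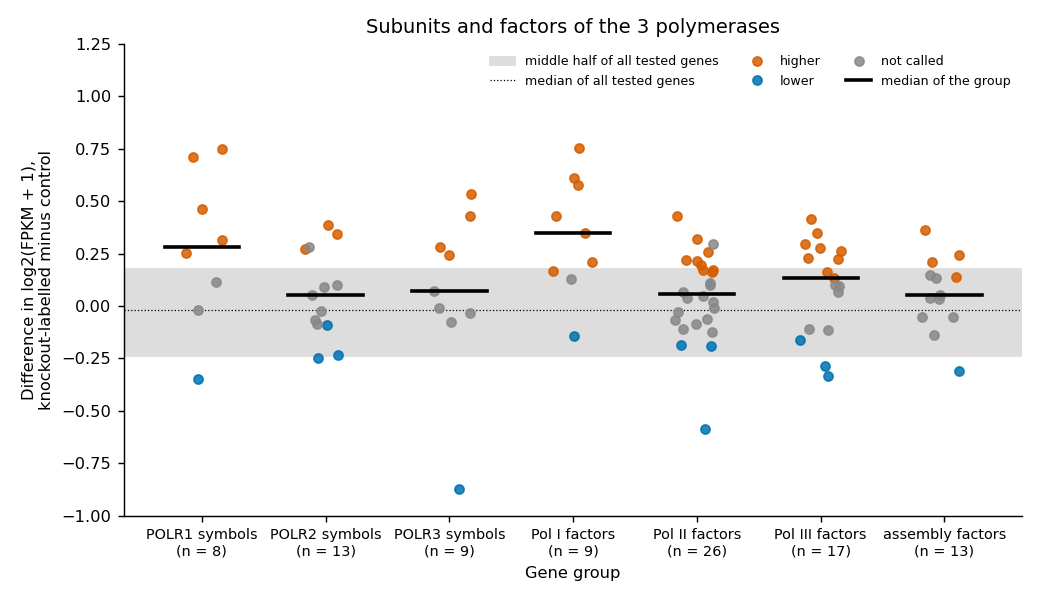
Difference in log2(FPKM + 1) for each gene of the 3 polymerases and of 4 lists of their factors; bars mark group medians, the grey band holds the middle of all tested genes (from -0.24 to 0.18, the quartiles) and the dotted line their median. The medians of the POLR1 genes (0.28) and of the Pol I factors (0.35) lie above the band.

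Promoter windows were also searched over the members. Of the 30 genes, 23 had a RefSeq window, and the 250 bases before each start were used. Of those 23, 10 rose, 3 fell and 10 were not called. A member was counted once if any of its windows held a match, whereas the percentages below are shares of single windows. A gene with several windows has more places for a match, so the counts and the percentages are not like for like. The ETS motif (CCGGAAG, either strand) was in windows of 6 members: POLR1B, POLR1C, POLR2F and POLR3A, which rose, and POLR2C and POLR3C, which were not called. Of all 35116 windows 8.52% held it. The E-box (CACGTG), a motif of MYC and related factors, was in windows of 3 members, POLR1G and POLR3A, which rose, and POLR3C, which was not called, against 6.34% of all windows. GC boxes were found in 15 members, 6 that rose, 3 that fell and 6 not called, against 42.6% of all windows, and CCAAT boxes in 6 members, 2 that rose, 2 that fell and 2 not called, against 32% of all windows. No split by call was tested. A match describes the letters and not a bound site.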

How the data were processed

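The authors deposited FPKM for 6 libraries, per the file headers. The tools named in the submitters' processing notes are HISAT2 (2.2.1) and StringTie (2.0.4), with the build hg38. Annotation, strand setting and row filter: not given in the sources used here. Columns were matched to libraries by name. Low values were searched for steps of whole reads: at most 0.93% of ratios between libraries below 0.5 FPKM fell within a 0.1% window, so depth is unknown and precision rests on 3 libraries per group. No pair of columns was identical.

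The 11451 genes whose mean reached 1 FPKM were fitted with limma 3.58.1 in R 4.3.3 on log2(FPKM + 1), 2 groups without covariates, with a variance trend. P-values were 2-sided, adjusted by Benjamini-Hochberg over all 11451 genes and called at 0.05. The log2(FPKM + 1) scale understates the change of low genes. In simulated data for 3 against 3 libraries with 11451 genes, the fit called 82.1% of genes at 1.5-fold, 92.5% at 2-fold and 98.5% at 4-fold, and 7 of 11251 unchanged genes. Each fold was set on 66 or 67 genes, drawn only from those above a minimum level, whereas 54.5% of genes were called in the data. The rates therefore need not hold for low genes such as POLR3B, or where so many genes change. Members, lists and tests were chosen with earlier results of these data known. Of the 31 members 1 is not reported here. The other 30 and, of each factor list, up to 4 called genes with the largest difference were named. CCNH, CDK7, RUVBL2, TAF1C, MAF1, BRF2, SNAPC1, SNAPC3, SNAPC4, SNAPC5, ERCC1, TBCB, CD151 and POLRMT were named after their values were seen. Positions and exon overlaps are from GENCODE 29 (GRCh38), which matched 12220 rows. Tables were made in Python 3.11.15 (pandas 2.3.3, scipy 1.17.1, numpy 2.4.6) and figures in matplotlib 3.10.9. Alternatives were another pseudocount, other filters, scaling and centring, quantile normalization, no variance trend, a replicate block, removal of a GC and length trend, and leaving out each library.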

Additional observations from a re-analysis of the deposited data

How the results depend on the processing

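Of the 17 members called, 14 kept their direction and their call under each alternative that held them; the exceptions were POLR2G, POLR3B and POLR1C. The number of POLR2 genes that rose was 5 instead of 3 with quantile normalization, with median centring, on the TPM scale and with the GC and length correction. Over all tested genes 3149 to 3500 rose in those settings, against 2896 in the main fit. With a single library left out, 5439 to 5663 genes changed in all (6245 with all libraries), 4 or 5 POLR1 genes rose, 3 or 4 POLR2 genes rose, 2 or 3 POLR2 genes fell and 3 or 4 POLR3 genes rose; the 1 POLR1 and the 1 POLR3 gene that fell were called each time. The difference of the POLR3G to POLR3GL log2 ratio lay between 1.31 and 1.49 without a single library.

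Members near 0 that were not called turned sign. POLR1H became 0.0061 on the TPM scale, 0.010 with median centring, 0.011 with quantile normalization and 0.031 without the GC and length trend. POLR2E became 0.00062 (TPM scale), 0.0041 (median centring) and 0.18 (that trend removed). It ranged from -0.15 to 0.11 without a single library, above 0 without control library 2 or knockout-labelled library 1 or 2. POLR3D became 0.014, 0.020, 0.035 and 0.087 in the settings named for POLR1H and ranged from -0.033 to 0.0071 without a single library, above 0 without control library 1 or knockout-labelled library 1 or 2. POLR2I became 0.087 without the GC and length trend and ranged from -0.18 to 0.039 without a single library, above 0 without knockout-labelled library 3 or control library 3. POLR3F ranged from -0.12 to 0.030, above 0 without knockout-labelled library 1. The causes were not tested.

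Same-numbered libraries did not deviate together (correlations of -0.0354, -0.0367 and 4.54e-05), so the numbers were not taken to pair them. With a replicate block 5782 genes changed, POLR2G (adjusted p = 0.0658) and POLR3B (0.0583) were not called, and POLR2D (0.0294) was. Under that pairing the POLR3G to POLR3GL difference was 1.40 with an exact p of 0.25, the smallest that 3 pairs allow. That p, too, was fixed by the single-gene values. Added after the data were seen, leaving out the 3 described members that share at least 10% of their exon bases with another listed gene left 4 POLR1, 2 POLR2 and 4 POLR3 genes that rose. That check left aside genes without a row in the deposited values. Of these, AC243547.3 covers 21.2% of the exon bases of POLR3GL and GCOM1 21.1% of those of POLR2M, both on the same strand. On the opposite strand, AD001527.2 covers 61.9% of the exon bases of POLR2I and ZNRD1ASP 24.5% of those of POLR1H. The part of these overlaps in the 2 falls, and in the values of POLR2I and POLR1H, was not tested.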

Other observations

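Near copies of POLR2J lie beside it on chromosome 7 and share its sequence, so the division of reads between them is uncertain. POLR2J2 measured 8.54, 1.00 and 1.72 FPKM across the controls, against 2.04, 8.57 and 1.86 FPKM across the knockout-labelled libraries, with a single high library in each group. POLR2J3 was listed under a pair of identifiers. The row ENSG00000168255 fell from 16.9 ± 2.07 to 13.5 ± 1.12 FPKM (log2 difference -0.30, limma adjusted p = 0.0297), and the row ENSG00000285437 stood at 0.578 ± 0.13 and 0.427 ± 0.00641 FPKM, below the filter. POLRMT, the polymerase of mitochondria, which is a single-subunit enzyme of another kind, had means of 12.1 ± 0.0968 and 13.03 ± 0.499 FPKM (log2 difference 0.093, limma adjusted p = 0.106).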
